A study of Mus musculus with 6 samples.

Results

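Cholesterol and fatty acid synthesis genes were followed in MEFs, cultured fibroblasts of mouse embryos that had been immortalized, with and without PME-1. The set was a fixed list of 39 gene symbols, chosen by name for their place in the pathways, with earlier results of these data known, out of 53762 symbols counted. It holds 21 genes of the sterol arm, from the first condensation of acetyl-CoA units to the last reductions of cholesterol synthesis and its regulators, and 18 genes of the fatty acid arm, from the supply of acetyl-CoA and NADPH to desaturation, elongation and the first steps of glycerolipid assembly. All 39 symbols were present in the counts and all 39 passed the filter on low counts, so each was tested. RNA sequencing was done on 6 libraries, 3 from wild-type cells (WT) and 3 from PME-1 knockout cells (KO), all immortalized MEFs kept in high-glucose DMEM with fetal bovine serum and collected 24 hours after seeding. PME-1, the product of Ppme1, is the methylesterase of the catalytic subunit of protein phosphatase 2A. The labels name PME-1 knockout in the titles of all 3 KO libraries, while the genotype entries of KO 2 and KO 3 carry another number after PME, so the titles were used. The labels do not say how the knockout was made, whether a group is 1 clone or whether the replicates were grown as separate cultures. The p-values therefore reflect the spread among 3 libraries a group, which may be technical.

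Cells make cholesterol from acetyl-CoA through mevalonate, isoprenoid units, squalene and lanosterol, and they make saturated fatty acids from the same acetyl-CoA through malonyl-CoA before desaturases and elongases modify the chains. Many enzymes of both arms are transcribed under the sterol regulatory element-binding proteins, membrane-bound factors encoded by Srebf1 and Srebf2 that are held in the endoplasmic reticulum by INSIG proteins when sterols are plentiful and are released by proteolysis when sterols are scarce. Serum supplies cultured fibroblasts with cholesterol and fatty acids.

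The stearoyl-CoA desaturases Scd1 and Scd2, which place the first double bond in a saturated acyl chain, are shown first. They lie close together on chromosome 19 and resemble each other in sequence, and only Scd1 passed the test of KO against WT. Their coding sequences of 1065 and 1074 bases (GENCODE M21 on GRCm38) were identical at 962 aligned bases, or 89.6%, with a longest identical run of 147 bases. A stretch of 60 coding bases without a mismatch lies in the fourth coding exon of both genes, at chr19:44401827-44401886 on the minus strand in Scd1 and at chr19:44299621-44299680 on the plus strand in Scd2. The 60 aligned coding bases with the most mismatches, 24 in number, lie in the second coding exon of both genes, at chr19:44406647-44406706 in Scd1 and at chr19:44294967-44295026 in Scd2. The lines below give both stretches 5′ to 3′, with capitals marking bases that differ between the genes. Reads from the first stretch fit either gene, while reads from the second tell them apart.
Scd1, identical stretch: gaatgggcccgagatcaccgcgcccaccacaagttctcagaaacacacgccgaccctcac
Scd2, identical stretch: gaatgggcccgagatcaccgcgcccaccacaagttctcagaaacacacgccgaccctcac
Scd1, divergent stretch: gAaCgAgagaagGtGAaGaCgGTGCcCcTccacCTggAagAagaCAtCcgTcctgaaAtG
Scd2, divergent stretch: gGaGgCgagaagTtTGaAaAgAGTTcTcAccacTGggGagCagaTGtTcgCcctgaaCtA

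Sequence upstream of the start site was available from RefSeq (GRCm38.p6) for 32 of the 39 genes. Scd1, Scd2, Fads1, Fdft1, Fdps, Sqle and Stard4 had no entry. Windows from 250 bases before to 50 bases after the start were searched on both strands for the sterol regulatory motif TCACNCCAC and for CCAAT, the core of the NF-Y site that often accompanies it. TCACNCCAC was present for 1 of the 32 genes, Hmgcs1, against 1.44% of all 27025 genes with a window. CCAAT was present for 25 of the 32 genes, against 41.1% of those genes. The upstream parts of 3 genes picked for their levels are printed: Elovl5, which was lower in KO, and Hmgcs1 and Fasn, whose levels differed mainly between KO libraries. Each is given 5′ to 3′ on its own strand, ends before the first annotated exon base and has both motifs in capitals. The Hmgcs1 window lies at chr13:119690101-119690350 on the plus strand, and its TCACNCCAC match begins 137 bases before the start. The Fasn window lies at chr11:120824548-120824797 on the minus strand and holds a pair of CCAAT matches that overlap. The Elovl5 window lies at chr9:77917115-77917363 on the plus strand. A match is a description of these letters and not a measured binding site, and its relation to the levels was not tested.
Hmgcs1: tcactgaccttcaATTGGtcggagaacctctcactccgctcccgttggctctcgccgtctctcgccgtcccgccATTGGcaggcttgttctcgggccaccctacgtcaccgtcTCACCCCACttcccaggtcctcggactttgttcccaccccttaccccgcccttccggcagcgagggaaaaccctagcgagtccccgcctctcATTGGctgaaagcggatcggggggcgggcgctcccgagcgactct
Fasn: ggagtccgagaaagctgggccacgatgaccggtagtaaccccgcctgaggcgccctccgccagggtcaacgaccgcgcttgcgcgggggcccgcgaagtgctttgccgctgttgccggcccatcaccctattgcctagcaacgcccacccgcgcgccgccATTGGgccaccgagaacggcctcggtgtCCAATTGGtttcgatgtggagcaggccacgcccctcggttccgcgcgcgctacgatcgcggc
Elovl5: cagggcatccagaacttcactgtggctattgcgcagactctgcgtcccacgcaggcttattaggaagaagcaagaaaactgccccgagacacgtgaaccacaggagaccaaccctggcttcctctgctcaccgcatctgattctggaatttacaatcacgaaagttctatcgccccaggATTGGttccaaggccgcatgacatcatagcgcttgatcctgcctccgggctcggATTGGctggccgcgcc

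Total counts ranged from 34450993 to 44116310 per library, and 3 counts, the upper limit that a count of 0 allows, equal 0.0689 to 0.0881 CPM (counts scaled to library size with TMM factors). Ppme1 was at 81.9 ± 4.22 in WT and 17.4 ± 2.14 CPM in KO (SD, n = 3), lower in all 3 KO libraries. WT 1 and KO 1 each differed most from their group mates, with a chi-square per degree of freedom of 125.07 to 149.25 in those pairs, whereas WT 2 and WT 3 gave 13.41 and KO 2 and KO 3 gave 13.92. All members called when both were left out are therefore listed with their values further on. All 10 fibroblast markers were tested, and their summed level was 16600 to 23200 CPM in WT and 13300 to 15600 CPM in KO. Single markers differed widely, with means in WT from 2.31 CPM for Thy1 and 10.9 CPM for Pdgfra to 5123 CPM for Col1a1. By edgeR 4 of the 10 markers (Col1a1, Col6a1, Pdgfrb and S100a4) fell and 0 rose, where 3.86% of all genes tested were lower. Thy1 was at 2.31 ± 1.22 in WT and 6.52 ± 2.52 CPM in KO without overlap (adjusted p = 0.134), and Fn1 had a log2 fold change of 0.04. The part of the marker differences in the results was not tested. Of 10 markers of adipocytes, cells with high lipid synthesis, Plin1, Lep, Cidec, Cidea and Retn had 0 counts in every library. Adipoq had 6 counts in WT 3 and 0 in the other libraries. The 4 markers tested had low means, with Lipe at 6.77 in WT and 8.87 CPM in KO and Fabp4 at 3.23 and 3.76. Pparg was at 2.10 and 4.26 CPM and Cebpa at 2.90 and 1.495 CPM, and 0 of these 4 were called. The summed level of the list was 11.6 to 17.2 CPM in WT and 13.7 to 23.2 CPM in KO. The sex-linked markers separated the genotypes, with Xist at 370 to 490 CPM and 0 counts of the Y-linked Ddx3y, Eif2s3y, Kdm5d and Uty in WT, while in KO Xist was at 0.118 to 0.310 CPM and the Y-linked genes were detected, so genotype and sex markers cannot be told apart.

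KO was compared with WT to see whether lipid synthesis genes are expressed differently when PME-1 is missing. Of the 39 genes, 2 passed the test and both fell in KO, the desaturase gene Scd1 and the elongase gene Elovl5, and both belong to the fatty acid arm. Over all 15223 genes tested, 7.40% were called, 3.55% higher and 3.86% lower (edgeR, adjusted p under 0.05). The members' share is not above that background. In the sterol arm 0 of 21 genes were called by edgeR, with 4 at an unadjusted p under 0.05 and 0 called by DESeq2 and by limma-voom. Of all 15223 genes tested by edgeR, 3378 had an unadjusted p under 0.05. The median log2 fold change was -0.12 in the sterol arm and -0.06 in the fatty acid arm, beside 0.01 over all genes tested. Within 1.5-fold lay 20 of the 21 sterol arm genes, 15 of the 18 fatty acid arm genes and 75.1% of all genes tested. Standard errors (SE) of the members' log2 fold changes ranged from 0.10 to 0.49, so differences of the size of these medians were not resolvable for single genes. On simulated counts the edgeR test recovered 32 of 100 genes changed 2-fold, which were drawn at random from all genes tested. The median SE was 0.18 for the members and 0.22 over all genes tested, so this recovery need not hold for the members. A gene that was not called may still differ. In RNA from whole cultures, fewer cells expressing a gene and less RNA per cell cannot be told apart.

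**Figure D1:**
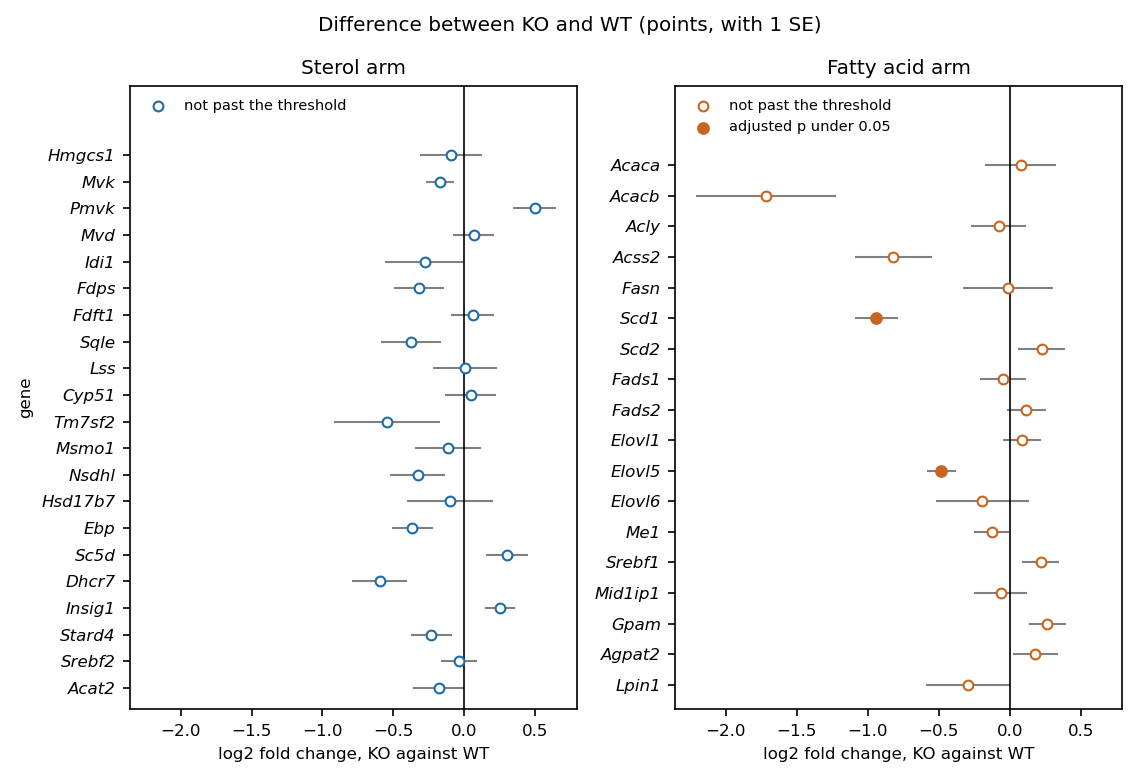
Log2 fold change of KO against WT for each of the 21 sterol arm and 18 fatty acid arm genes (points) with 1 SE (bars), where filled points passed the adjusted p threshold of 0.05. Scd1 and Elovl5 are the filled points, and among the open points Acacb, Acss2 and Dhcr7 lie more than 1.5-fold below 0 change.

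Scd1 was lower in every KO library. Its level was 325, 421 and 454 CPM in WT libraries 1 to 3 and 205, 223 and 197 CPM in KO libraries 1 to 3. The groups did not overlap, and the lowest WT library stood well above the highest KO library. The fall was 1.92-fold, from 400.3 ± 67.0 to 208.6 ± 13.3 CPM (SD, n = 3; log2 fold change -0.94, SE 0.15, adjusted p = 0.0153). The gene lies on the minus strand of chromosome 19 from 44394455 to 44407879 (GRCm38). The call was lost when WT 2, WT 3, KO 2 or KO 3 was left out, with adjusted p from 0.0633 to 0.079 and log2 fold changes from -0.98 to -0.84. Without WT 1 and KO 1 the log2 fold change was -1.06.

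Scd2, the desaturase that prevailed in these cells, did not pass the test. It was at 2218, 2367 and 2541 CPM in WT and at 2192, 3145 and 2989 CPM in KO, where KO 2 and KO 3 exceeded every WT library and KO 1 lay below all of them. The log2 fold change was 0.22 (SE 0.17, adjusted p = 0.489). Without WT 1 and KO 1, where 48.0% of all genes tested were called, it was 0.32 (adjusted p = 0.00016). The summed level of both desaturases was 2776 ± 226 in WT and 2984 ± 517 CPM in KO (SD, n = 3). Scd1 made up 12.8%, 15.1% and 15.2% of the reads of the pair in WT libraries 1 to 3, with 95% exact Clopper-Pearson intervals from 12.6% to 13.0%, 14.9% to 15.3% and 14.97% to 15.36%. In KO libraries 1 to 3 the share was 8.56% (8.38% to 8.75%), 6.63% (6.50% to 6.76%) and 6.19% (6.05% to 6.34%). The intervals cover counting error only, and the spread between libraries of a group was wider than they are. All KO shares lay below all WT shares, with p = 0.1 in a two-sided exact permutation test of 3 against 3 libraries, the smallest p this design allows. Benjamini-Hochberg adjustment over the 9 summed levels, shares and ratios computed in this way gave 0.225. Reads from stretches that both genes share, such as the identical stretch printed above, could have been given to either gene, and how the counting treated them is not given in the sources used here.

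Elovl5, an elongase of polyunsaturated chains, was the other gene that fell. It was at 160, 154 and 173 CPM in WT and at 110, 121 and 117 CPM in KO, again without overlap between the groups. The level went from 162.2 ± 10.1 to 116.0 ± 5.72 CPM (SD, n = 3), 1.40-fold lower (log2 fold change -0.48, SE 0.10, adjusted p = 0.0363). The call rests on all but 1 of the libraries: leaving out WT 2, WT 3, KO 1, KO 2 or KO 3 gave adjusted p from 0.0507 to 0.166 with log2 fold changes from -0.52 to -0.44. Elovl5 lies at 77917364 to 77984519 on chromosome 9, in a region where neighbours were lower too. Among 21 other genes averaging 5 CPM or more that start between 75 and 80 Mb of that chromosome, the median log2 fold change was -0.39, with 5 genes lower and 1 higher past the threshold. The part of this neighbourhood in the result was not tested. Me1 and Sc5d, also on chromosome 9, had log2 fold changes of -0.13 and 0.30, in stretches with medians of -0.23 over 18 and 0.32 over 32 other genes.

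**Figure D2:**
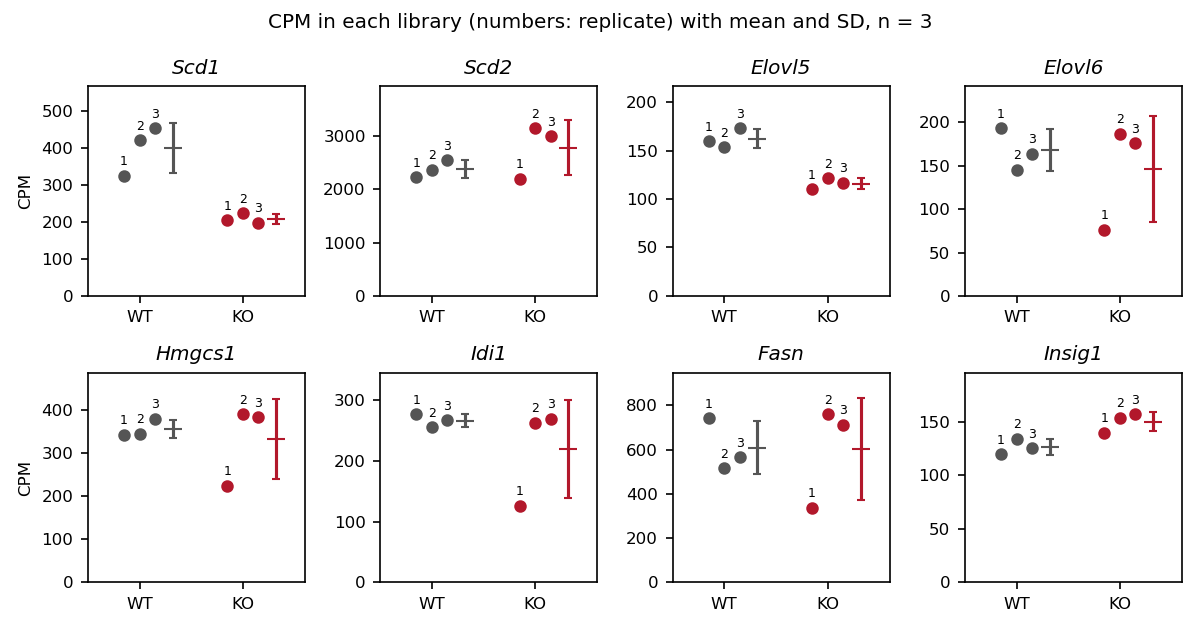
CPM of 8 genes in each WT (grey) and KO (red) library, numbered by replicate, with the group mean and SD beside the points (n = 3). Scd1 and Elovl5 separate the genotypes, Elovl6, Hmgcs1, Idi1 and Fasn are low in KO 1 alone, and Insig1 is slightly higher in each KO library than in any WT library.

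Genes that supply the building blocks showed no call. Acly, which splits citrate into cytosolic acetyl-CoA, was at 439 ± 15.6 in WT and 416 ± 102 CPM in KO (log2 fold change -0.08, SE 0.19). Acss2, which makes acetyl-CoA from acetate, was at 14.1, 20.4 and 24.0 CPM in WT and at 13.9, 11 and 8.22 CPM in KO. All KO values lay below the WT values, by a narrow margin between WT 1 and KO 1 (log2 fold change -0.82, SE 0.27, adjusted p = 0.132). Without those libraries it was called, at -1.21 (adjusted p = 0.000106), as were 48.0% of all genes tested. Exons of Acss2 overlap those of Gss and Ggt7 on the opposite strand by 395 and 197 bases, and the strand setting of the counting is not known. Me1, the malic enzyme that yields NADPH, was at 187 ± 9.33 in WT and 171 ± 20.6 CPM in KO.

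The carboxylases and the synthase that commit acetyl-CoA to fatty acids did not pass the test either. Acaca, the main cytosolic acetyl-CoA carboxylase, was at 197, 137 and 164 CPM in WT and at 115, 212 and 197 CPM in KO (log2 fold change 0.08, SE 0.25). Fasn, the fatty acid synthase, was at 743, 516 and 566 CPM in WT and at 337, 759 and 713 CPM in KO (log2 fold change -0.01, SE 0.32). For both genes KO 1 was the lowest of the 6 libraries and KO 2 the highest, so the group means were alike while single libraries differed about as much as any between genotypes. Acacb, the mitochondrial carboxylase whose product restrains fatty acid oxidation, was low, at 4.13, 10.2 and 6.31 CPM in WT and 3.31, 1.196 and 1.76 CPM in KO. The KO libraries lay below the WT libraries, with a log2 fold change of -1.72 (SE 0.49, adjusted p = 0.0934). DESeq2 called it (adjusted p = 0.00565) beside Scd1 and Elovl5, 3 of 18 genes, and called 5.29% of all genes lower. With edgeR it was called once KO 1 was left out, at -2.22 on the log2 scale (adjusted p = 0.0484). Leaving out WT 1 as well gave -2.49 (adjusted p = 4.92e-05), in a setting that called 48.0% of all genes tested.

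Among the members, elongases and desaturases other than Scd1 and Elovl5 did not pass the test with all 6 libraries. Elovl6, which extends palmitate, was at 194, 146 and 164 CPM in WT and at 76.4, 187 and 176 CPM in KO, so only KO 1 was low. Elovl1, an elongase of very long chains, was at 74.0 ± 5.90 in WT and 78.6 ± 11.02 CPM in KO. The polyunsaturated fatty acid desaturases Fads1 and Fads2 were at 383 ± 68.6 and 305 ± 33.96 in WT and at 371 ± 38.9 and 331 ± 36.9 CPM in KO (log2 fold changes -0.05, SE 0.17, and 0.12, SE 0.14).

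Glycerolipid genes and regulators of the fatty acid arm gave no call. Srebf1, whose product drives fatty acid synthesis genes, was at 101.2, 131 and 128 CPM in WT and at 146, 136 and 137 CPM in KO. Every KO library lay above every WT library (log2 fold change 0.22, SE 0.13, adjusted p = 0.386). Gpam, the mitochondrial glycerol-3-phosphate acyltransferase, was at 26.5, 23.9 and 23.6 CPM in WT and at 25.95, 31.2 and 31.9 CPM in KO, where KO 1 fell among the WT libraries (log2 fold change 0.27, SE 0.13, adjusted p = 0.297). Agpat2, the next acyltransferase, was at 32.5 ± 5.82 in WT and 36.9 ± 3.02 CPM in KO. Lpin1, a phosphatidate phosphatase, was at 27.4 ± 10.6 in WT and 22.4 ± 2.86 CPM in KO, with the lowest value of all in WT 1. Mid1ip1, an activator of acetyl-CoA carboxylase, was at 84.6, 59.7 and 62.5 CPM in WT and at 53.5, 69.5 and 74.8 CPM in KO, so the groups overlapped (log2 fold change -0.06, SE 0.19).

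The early sterol arm leads from acetyl-CoA to farnesyl diphosphate. Acat2, the cytosolic acetoacetyl-CoA thiolase, was at 218 ± 29.3 in WT and 193 ± 36.5 CPM in KO, and summed with its 98.1%-identical neighbour Acat3 the log2 ratio was -0.15 against -0.18 alone. Hmgcs1, the HMG-CoA synthase whose upstream window holds the sterol regulatory motif, was at 343, 346 and 381 CPM in WT and at 225, 391 and 384 CPM in KO. Apart from KO 1 the libraries lay close together (log2 fold change -0.10, SE 0.22). The mevalonate kinase Mvk was at 62.2 ± 2.12 in WT and 55.2 ± 3.44 CPM in KO. Pmvk, the next kinase, was at 28.4, 40.1 and 34.8 CPM in WT and at 51.0, 50.3 and 44.3 CPM in KO. It was among the few members higher in every KO library than in any WT library (log2 fold change 0.50, SE 0.15, adjusted p = 0.112). Mvd, the decarboxylase, was at 64.0 ± 5.92 in WT and 66.9 ± 9.89 CPM in KO. Idi1, the isomerase of isoprenoid units, was at 276, 255 and 267 CPM in WT and at 126, 262 and 269 CPM in KO, so KO 1 held less than 0.5 times the level of the other KO libraries (ratio 0.474). Fdps, which makes farnesyl diphosphate, was at 429 ± 88.6 in WT and 344 ± 33.5 CPM in KO (log2 fold change -0.32, SE 0.18), and it shares sequence with 4 pseudogenes or readthrough genes whose reads came to 7.43% of its own.

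Farnesyl diphosphate is then joined to squalene, oxidised and closed to lanosterol. Fdft1, the squalene synthase, was at 165 ± 24.4 in WT and 171 ± 18.8 CPM in KO. Its exons overlap those of Ctsb on the opposite strand by 774 bases, and the strand setting of the counting is not known. Sqle, the squalene epoxidase and a rate-limiting step after mevalonate, was at 303, 294 and 291 CPM in WT and at 155, 260 and 267 CPM in KO. All KO libraries lay below all WT libraries, with KO 1 far below and the other KO libraries slightly below WT (log2 fold change -0.38, SE 0.21, adjusted p = 0.357, and -0.15 without WT 1 and KO 1). Lss, the lanosterol synthase, was at 125 ± 6.82 in WT and 125 ± 37.4 CPM in KO (log2 fold change 0.00, SE 0.23).

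Late steps convert lanosterol to cholesterol. Cyp51, the lanosterol demethylase, was at 287 ± 7.34 in WT and 295 ± 68.4 CPM in KO, and Msmo1, the methyl sterol oxidase, at 210 ± 22.2 and 194 ± 57.7 CPM. Hsd17b7, a ketosteroid reductase, was at 39.8, 34.3 and 36.6 CPM in WT and at 18.8, 42.6 and 41.7 CPM in KO. Sc5d, the desaturase of the sterol ring, was at 91.5 ± 1.33 in WT and 113 ± 19.9 CPM in KO, with KO 2 and KO 3 above all WT libraries (log2 fold change 0.30, SE 0.15). It was called without KO 1 (log2 fold change 0.44, adjusted p = 0.0336). Dhcr7, the reductase of the last step, was at 53.2, 74.4 and 78.2 CPM in WT and at 36.6, 49.3 and 50.3 CPM in KO. Its KO values all lay below its WT values (log2 fold change -0.60, SE 0.19, adjusted p = 0.129), and it was called without WT 1 (-0.75, adjusted p = 0.045). Tm7sf2, a sterol reductase at a low level, was at 10.8, 23.2 and 23.3 CPM in WT and at 18.5, 9.34 and 11.4 CPM in KO. WT 1 and KO 1 ran against the other libraries of their groups, and the log2 fold change was -0.55 (SE 0.37, adjusted p = 0.452) with all libraries. Without both, where 48.0% of all genes tested were called, it was -1.17 (adjusted p = 3.42e-05). In the annotation 532 exon bases of Tm7sf2 overlap Vps51 on the same strand.

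Nsdhl and Ebp, a sterol dehydrogenase and a sterol isomerase, lie on the X chromosome, as does Mid1ip1. Ebp was at 35.4, 46.1 and 47.1 CPM in WT and at 35.5, 32.5 and 31.8 CPM in KO (log2 fold change -0.37, SE 0.14, adjusted p = 0.195). Nsdhl was at 70.3, 88.2 and 91.1 CPM in WT and at 49.98, 78.2 and 70.4 CPM in KO (log2 fold change -0.33, SE 0.19, adjusted p = 0.378). In both genes the WT and KO values overlapped through WT 1. The median log2 fold change over 507 X-linked genes tested was -0.06, with 23 higher and 24 lower past the threshold.

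Regulators of the sterol arm differed little. Srebf2, the main transcription factor of cholesterol synthesis, was at 524, 538 and 522 CPM in WT and at 436, 548 and 558 CPM in KO (log2 fold change -0.04, SE 0.13). Insig1, which retains the factor in the endoplasmic reticulum and is itself a target of it, was at 119, 134 and 125 CPM in WT and at 140, 154 and 157 CPM in KO. Each KO library exceeded each WT library, although the difference did not pass the test (log2 fold change 0.25, SE 0.10, adjusted p = 0.215). Stard4, a sterol carrier protein gene, was at 156 ± 10.5 in WT and 133 ± 21.4 CPM in KO. Across both arms the KO values lay above all WT values for 3 genes, Pmvk, Insig1 and Srebf1, and below them for 7 genes, Mvk, Sqle, Dhcr7, Acacb, Acss2, Scd1 and Elovl5. Over all genes tested, 30.0% did not overlap, 14.6% higher and 15.4% lower.

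Many members were low in KO 1. That library held the lowest level of all 6 libraries for 16 of the 21 sterol arm genes, or 76.2%, and for 9 of the 18 fatty acid arm genes, or 50%, while 25.5% of all genes tested were lowest in KO 1. The median log2 ratio of KO 1 to the mean of KO 2 and KO 3 was -0.44 in the sterol arm and -0.28 in the fatty acid arm, against 0.01 over all genes tested. The ratio of levels was 0.421 for Elovl6, 0.447 for Hsd17b7, 0.458 for Fasn, 0.474 for Idi1, 0.559 for Lss, 0.562 for Msmo1 and 0.564 for Acaca. Other members went the opposite way, with 2.24 for Acacb, 1.79 for Tm7sf2 and 1.45 for Acss2, and Insig1 and Scd1 stayed near the other KO libraries at 0.900 and 0.976. These genes, other than those fixed for their roles, were picked after their values were seen. The sum of sterol arm levels was 3461, 3737 and 3797 CPM in WT and 2630, 3741 and 3752 CPM in KO, where KO 2 and KO 3 lay within the WT range (two-sided exact permutation p = 0.7). Companion genes of sterol sensing and transport had a median log2 ratio of 0.00 between KO 1 and the other KO libraries. Companion genes of acyl chain processing and glycerolipid assembly had -0.20, near the -0.28 of the fatty acid arm. Differences between these lists and the members were not tested.

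**Figure D3:**
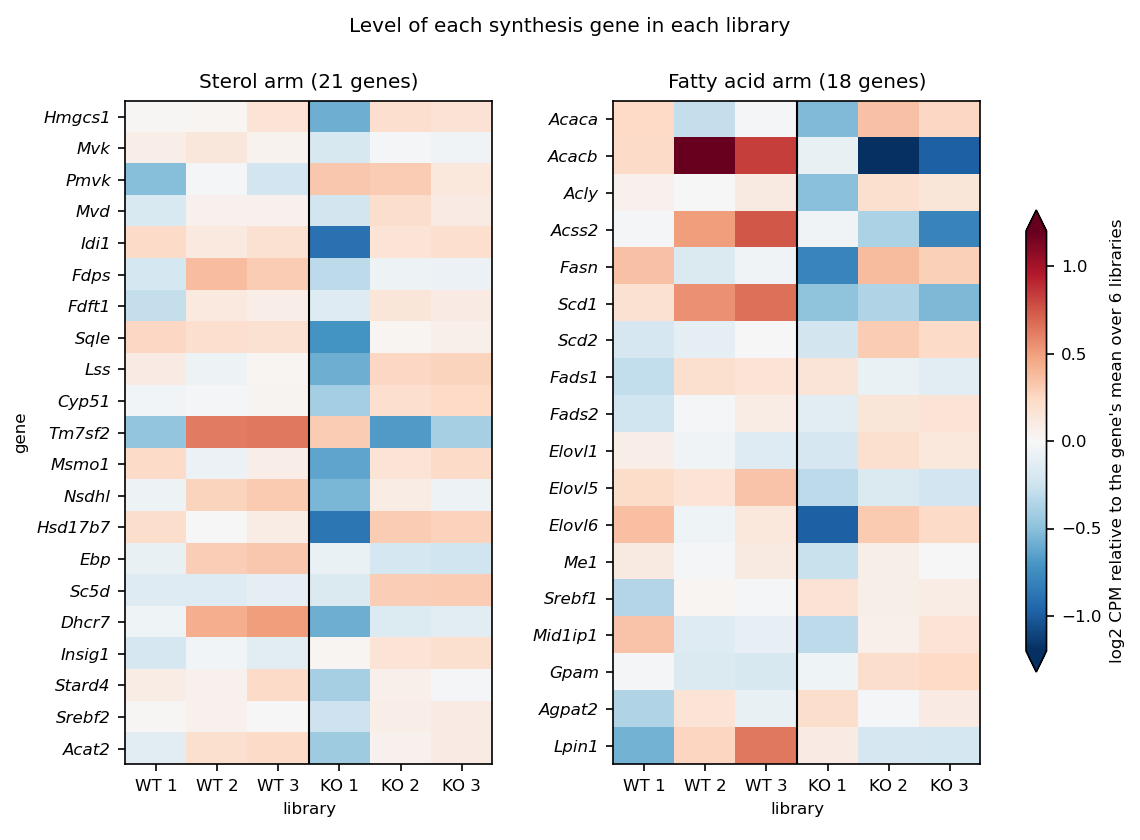
Level of each gene in each library as log2 CPM minus the gene's mean over the 6 libraries, for the sterol arm (left) and the fatty acid arm (right), with red above and blue below the mean and colours saturated past 1.2. The KO 1 column is blue for most sterol arm genes, while Scd1 and Elovl5 are red in WT and blue in KO.

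WT 1 differed from its group without a common direction across members. The median log2 ratio of WT 1 to the mean of WT 2 and WT 3 was -0.08 in the sterol arm and -0.09 in the fatty acid arm, near the -0.03 of all genes tested. KO 1 was lower than both KO 2 and KO 3 for 29 of the 39 members and for 42.3% of all genes tested. Of these 29 members, 12 were higher in WT 1 than the mean of its group mates and 17 were lower. Pearson's r between the log2 ratios was -0.81 across the 39 members and -0.56 across all 15223 genes tested, a description across genes, which are not independent replicates and here share the same libraries and scaling factors. Mid1ip1, Fasn, Acaca and Elovl6 were the members highest in WT 1 against its group, and all 4 were low in KO 1. Tm7sf2, Lpin1, Acacb and Acss2 were the lowest in WT 1 against its group, and all 4 were higher in KO 1 than in KO 2 and KO 3. In KO 1 Acacb and Acss2 were still below every WT library.

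**Figure D4:**
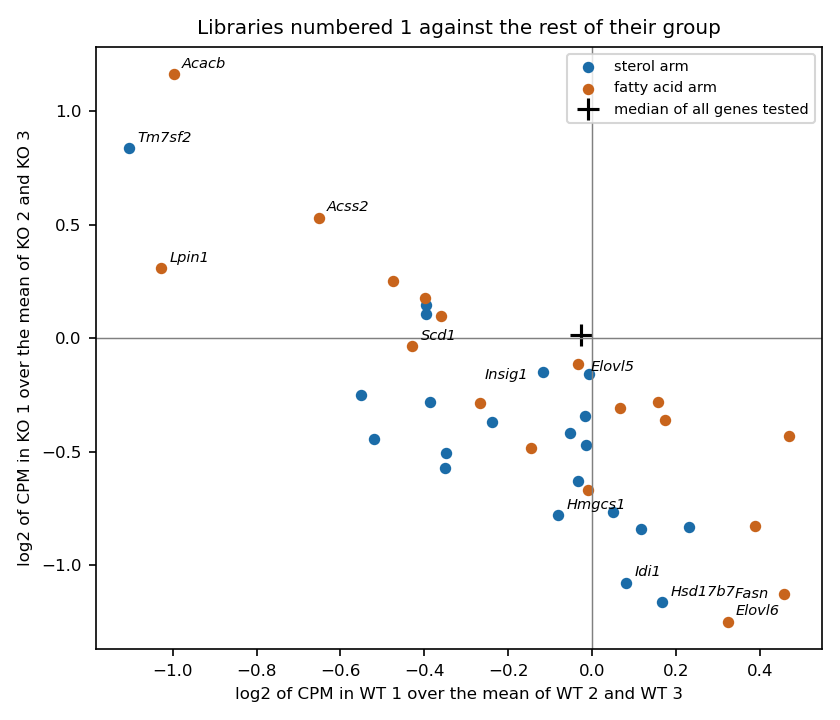
Each of the 39 genes by its log2 ratio of WT 1 to the other WT libraries (horizontal) and of KO 1 to the other KO libraries (vertical), with the median of all genes tested as a cross. The points run from the upper left, with Acacb and Tm7sf2, to the lower right, with Fasn and Elovl6, and most lie below the horizontal zero line.

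Without WT 1 and KO 1 many members passed the test, in both directions. In that setting 7 of 21 sterol arm genes were higher and 6 lower, and 7 of 18 fatty acid arm genes were higher and 6 lower, while 48.0% of all genes tested were called, 23.3% higher and 24.6% lower. Genotype cannot be told apart there from any other difference between WT 2 and WT 3 on one side and KO 2 and KO 3 on the other. In the sterol arm the lower genes were Tm7sf2 (log2 fold change -1.17), Dhcr7 (-0.62), Ebp (-0.54), Fdps (-0.40), Nsdhl (-0.27) and Sqle (-0.15). The higher ones were Sc5d (0.43), Pmvk (0.34), Lss (0.27), Insig1 (0.26), Hsd17b7 (0.25), Cyp51 (0.21) and Msmo1 (0.19). In the fatty acid arm the lower genes were Acacb (-2.49), Acss2 (-1.21), Scd1 (-1.06), Lpin1 (-0.67), Elovl5 (-0.46) and Fads1 (-0.28). The higher ones were Acaca (0.44), Fasn (0.44), Gpam (0.41), Scd2 (0.32), Elovl1 (0.26), Mid1ip1 (0.24) and Elovl6 (0.23). The arm medians were 0.03 and 0.09, beside -0.12 and -0.06 with all libraries.

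Levels of different genes were compared as CPM per kilobase of merged exons. Scd2 stood highest at 435 ± 29.6 CPM per kilobase in WT and 508 ± 93.6 in KO (SD, n = 3). Fdps (102 ± 21.0), Fads2 (92.7 ± 10.3), Acat2 (85.8 ± 11.5), Acly (83.1 ± 2.96), Scd1 (81.8 ± 13.7), Fads1 (79.6 ± 14.3) and Hmgcs1 (77.6 ± 4.58) followed in WT, and neighbours among these 7 did not differ beyond their SD. In KO, Scd1 was at 42.6 ± 2.72 CPM per kilobase and ranked 14 of 39, against 6 in WT. The order depends on the length used: per kilobase of the longest transcript Scd1 ranked 10 in WT at 82.8, below Srebf2 (104), Hmgcs1 (103) and Idi1 (87.8), and Acss2 (5.40) stood above Gpam (4). Elovl5 ranked 15 in WT at 46.1 ± 2.86 and 18 in KO at 32.9 ± 1.62. Scd2 made up 42.6 ± 1.30% of the summed CPM of the fatty acid arm in WT and 48.6 ± 0.520% in KO (SD, n = 3), with no overlap between the groups (two-sided exact permutation p = 0.1, the smallest this design allows, adjusted 0.225). At the other end, Acacb (0.714 ± 0.318), Acss2 (1.92 ± 0.492), Lpin1 (2.84 ± 1.10) and Gpam (3.70 ± 0.236) were the lowest in WT.

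Other genes of lipid metabolism were read from lists beside the members. Of 28 genes of sterol sensing and transport, among them Scap, the SREBP escort, and Abca1, the cholesterol exporter, 0 were called by edgeR. Of these 28, 4 had an unadjusted p under 0.05, as did 3378 of all 15223 genes tested, and 1 was called by DESeq2. That gene was Vldlr, a lipoprotein receptor, named here after its values were seen. It was at 4.99, 6.33 and 6.06 CPM in WT and at 51.3, 13.9 and 12.7 CPM in KO (log2 fold change 2.16, SE 0.57, adjusted p = 0.0725 with edgeR), so every KO library was higher and KO 1 by the most. Without KO 1 it was 1.195 on the log2 scale and called (adjusted p = 0.0232). Leaving out WT 1 and KO 1 gave 1.10 (adjusted p = 0.00016), where 48.0% of all genes tested were called. Of 32 genes for acyl chain processing and glycerolipid assembly, 26 were tested. Of these, 1 rose and 1 fell, where 3.55% of all genes tested were higher and 3.86% lower. Elovl7, an elongase, rose 3.39-fold, from 7.57, 6.63 and 6.98 CPM in WT to 17.9, 29.1 and 24.8 CPM in KO (adjusted p = 0.00553). Hacd3, a dehydratase of the elongation cycle, fell 2.06-fold, from 138, 131 and 132 CPM to 60.5, 68.7 and 66.0 CPM (adjusted p = 0.00223). It lies on chromosome 9 among 23 other genes, from 60 to 65 Mb, with a median log2 fold change of -0.90, of which 19 fell, and the part of that neighbourhood was not tested.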

How the data were processed

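The 6 mouse fibroblast libraries (3 WT, 3 KO) were analysed from the deposited raw read counts, 1 value per gene symbol. The submitters' processing notes name Trim Galore 0.6.6 and HISAT2 2.2.1 and list a human build, whereas the symbols are murine; positions printed here are therefore not the authors'. Which program and annotation produced the counts, and with which strand setting, is unknown from the available sources. The library kit keeps strand, per the labels' protocols.

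KO was tested against WT with edgeR 4.0.16 in R 4.3.3 (filterByExpr, TMM factors, robust quasi-likelihood fit), and p-values were adjusted by Benjamini-Hochberg over all 15223 genes, with calls under 0.05. Adjusted p-values come from edgeR unless another tool is named. The SE is the log2 fold change over the square root of F. Levels relative to the gene mean use log2 CPM with a prior count of 2, and the ratios behind the correlation use a pseudocount of 0.1 CPM. DESeq2 1.42.0, limma-voom (limma 3.58.1), other scaling factors and filters, a replicate block and left-out libraries were alternatives. Tests were tried on simulated counts. Positions, lengths and coding sequences come from GENCODE M21, in which 92.7% of symbols matched by name. The members and lists were chosen with earlier results of these data known. By rule, per-library values are given for members past the threshold, the 4 next by p in each arm, members fixed by role, and called companion genes. Others shown by library (Hmgcs1, Idi1, Elovl6, Hsd17b7, Tm7sf2, Vldlr, Dgat2) were chosen after their values were seen.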

Additional observations from a re-analysis of the deposited data

How the results depend on the processing

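The number of genes called depended on the libraries and the tool: DESeq2 called 1956, a replicate block 8, and leaving out 1 library gave 332 to 1216, while 7408 were called without WT 1 and KO 1. Members called in the sterol arm were 0 to 1 with 1 library left out and 13 without WT 1 and KO 1. In the fatty acid arm they were 3 with DESeq2, 0 with the block, 0 to 2 with 1 library left out and 13 without both. Companion genes called were 4 with DESeq2, 0 with the block, 2 to 4 with 1 library left out and 31 without both. The sterol arm's median log2 fold change, -0.115 with all libraries, was 0.064 without KO 1, -0.261 without KO 3 and 0.025 without both. The fatty acid arm's median log2 fold change was -0.15 to 0.112 with 1 library left out and 0.09 without both. The labels do not say whether the replicate numbers pair the samples. Deviations from the group means correlated across genes at -0.512, -0.307 and -0.223 for libraries with the same number. For WT and KO libraries with different numbers the values ran from -0.215 to 0.395. Deviations within a group are tied to each other, so these values cannot decide whether the numbers mark pairs. With the block, adjusted p was 0.17 for Scd1, 0.315 for Elovl5, 0.0518 for Ppme1, 0.119 for Elovl7 and 0.101 for Hacd3, and Lss was at -0.043. Several uncalled members changed sign. Scaling by library size alone gave Srebf2 0.018, Fasn 0.038 and Fads1 0.018, limma-voom gave Lss -0.046, a mean of at least 5 CPM gave Fasn 0.013, and no filter gave Lss -0.003. Without WT 1 and KO 1 the log2 fold changes were Hmgcs1 0.091, Idi1 0.023, Msmo1 0.192, Hsd17b7 0.248, Srebf2 0.059, Acly 0.108, Fasn 0.443, Elovl6 0.229, Mid1ip1 0.237 and Agpat2 -0.004. With 1 library left out, log2 fold changes in the sterol arm ran from -0.221 to 0.117 for Hmgcs1, -0.019 to 0.176 for Mvd, -0.057 to 0.142 for Fdft1, -0.128 to 0.231 for Lss, -0.064 to 0.221 for Cyp51, -0.261 to 0.111 for Msmo1, -0.284 to 0.189 for Hsd17b7 and -0.095 to 0.064 for Srebf2. In the fatty acid arm they ran from -0.081 to 0.301 for Acaca, -0.191 to 0.111 for Acly, -0.21 to 0.273 for Fasn, -0.181 to 0.034 for Fads1, -0.408 to 0.113 for Elovl6 and -0.16 to 0.114 for Mid1ip1. The cause was not tested. Scd1 and Elovl5 were lower in KO in all 13 alternatives and without WT 1 and KO 1. At this depth counting error is small beside the spread between libraries.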

Other observations

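Scd3, a desaturase gene beside Scd1 and Scd2 on chromosome 19 and 90.4% identical to Scd1 over the aligned coding bases, was too low to be tested but held 181 counts in KO 2, against 0 in KO 3, 7 in KO 1, 14 in WT 3 and 0 in WT 1 and WT 2. The ratio of Srebf1 to Srebf2 reads on the log2 scale was -2.37, -2.03 and -2.02 in the WT libraries and -1.58, -2.01 and -2.02 in the KO libraries, with KO 1 and WT 1 at the ends and the other libraries close together (two-sided exact permutation p = 0.1, adjusted 0.225 over 9 measures). Dgat2, which makes triglycerides, was at 6.88, 8.34 and 8.52 CPM in WT and at 15.3, 13.4 and 11.2 CPM in KO without overlap (log2 fold change 0.75, SE 0.19, adjusted p = 0.0665). The processed pseudogene of Acaca, 99.2% identical over the aligned bases, held reads equal to 20.3% of those of Acaca, and the sum of both gave a log2 ratio of KO to WT of 0.04 against 0.08 for Acaca alone.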
